A study of Mus musculus with 18 samples.

Results

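The genes described here are 10 members of the prostaglandin E2 and prostacyclin/D2 pathway: the E receptors Ptger1, Ptger2, Ptger3 and Ptger4, the cyclooxygenases Ptgs1 and Ptgs2, and the terminal synthases Ptges, Ptgds, Hpgds and Ptgis. They were chosen by symbol, all 10 were found among the 52093 symbols of the expression files, and where a symbol had several rows, the one with the largest RPKM averaged over the 18 files was taken. RPKM is a read count scaled to transcript length and library size, so levels of different genes can be set side by side on it.

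The 18 RNA-seq samples came from wild type male C57BL/6 mice that had been on a HFD for 12 weeks and were 16 weeks old. They form 3 groups of 6: adipocytes from iWAT (inguinal white fat), adipocytes from eWAT (epididymal white fat) and BAT (brown fat). The white depots were digested with collagenase and the floating cells were collected, whereas BAT was frozen whole, so that tissue and preparation cannot be told apart in any comparison with BAT. The labels call the BAT samples adipocytes in one field and tissue in another, and a treatment field gives regular chow although titles and protocol give HFD. The labels do not say that each sample came from a separate mouse, so the p-values measure the spread between these samples.

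Reads on the rows ranged from 26768529 to 30166441 for iWAT adipocytes, from 24655056 to 37438994 for eWAT adipocytes and from 27402247 to 42518483 for BAT. BAT had a summed RPKM of 903 ± 81.9 for 6 adipocyte markers (mean ± SD, n = 6), against 3680 ± 493 for iWAT and 1392 ± 602 for eWAT adipocytes, and 5 brown adipocyte markers summed to 2773 ± 296 in BAT against at most 17.2 in any white sample. Macrophage markers summed to 662 ± 160 RPKM for iWAT adipocytes, 3140 ± 729 for eWAT adipocytes and 40.7 ± 9.85 for BAT. Samples 1 and 3 of eWAT adipocytes stood apart, with the lowest adipocyte sums of their group (760 and 557) and the highest macrophage sums (4103 and 4043), and results that rest on them are given with and without them. In bulk RNA, fewer cells of a type and less RNA per cell cannot be told apart.

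Prostaglandins are made from arachidonic acid that phospholipases release from membranes. The cyclooxygenases, Ptgs1, which many tissues express steadily, and Ptgs2, which stimuli induce, turn it into prostaglandin H2, and terminal synthases turn that into prostaglandin E2 (Ptges), D2 (Ptgds and Hpgds) or prostacyclin (Ptgis). Prostaglandin E2 acts on 4 G protein-coupled receptors, of which the products of Ptger2 and Ptger4 couple to Gs and raise cAMP, that of Ptger3 couples mainly to Gi and lowers it, and that of Ptger1 raises intracellular calcium. In adipocytes, Gi-coupled receptors restrain the lipolysis that cAMP drives.

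RefSeq start sites of GRCm38.p6 were available for 8 of the 10 genes. For 5 of them the 250 bases before that start also lay wholly before the start of the row in the deposited files (0 to 69 bases before it, in the mm9 build). These 5 windows are printed because they met this condition, which those of Ptges, Ptgds and Hpgds did not. Capitals mark any of the 5 motifs searched, each on both strands. For the TATA box the letters searched were TATAAA and for the GC box, a site known to bind Sp1, they were GGGCGG. For the CCAAT box its own 5 letters were searched. An E-box was searched as CACGTG, and the core of the cAMP response element, which CREB is known to bind, as TGACG. The windows are chr14:44987861-44988110 (Ptger2, plus strand), chr3:157566626-157566875 (Ptger3, plus), chr15:5244188-5244437 (Ptger4, minus), chr2:36230176-36230425 (Ptgs1, plus) and chr1:150099781-150100030 (Ptgs2, plus), each written 5′ to 3′ on the strand of its gene.
Ptger2: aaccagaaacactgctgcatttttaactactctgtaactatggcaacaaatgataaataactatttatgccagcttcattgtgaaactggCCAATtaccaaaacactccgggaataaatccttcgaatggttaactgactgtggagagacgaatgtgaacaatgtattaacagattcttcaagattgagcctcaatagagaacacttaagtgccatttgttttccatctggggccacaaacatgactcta
Ptger3: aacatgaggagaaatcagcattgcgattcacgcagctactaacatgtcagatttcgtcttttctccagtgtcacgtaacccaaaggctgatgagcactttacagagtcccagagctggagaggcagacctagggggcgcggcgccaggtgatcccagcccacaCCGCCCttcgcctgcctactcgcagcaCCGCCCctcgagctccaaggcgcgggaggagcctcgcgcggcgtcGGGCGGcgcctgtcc
Ptger4: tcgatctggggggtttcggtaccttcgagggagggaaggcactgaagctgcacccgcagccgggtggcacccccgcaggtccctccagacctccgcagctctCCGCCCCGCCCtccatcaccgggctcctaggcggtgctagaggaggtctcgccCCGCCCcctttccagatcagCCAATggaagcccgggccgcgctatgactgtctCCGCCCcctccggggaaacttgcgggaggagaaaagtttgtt
Ptgs1: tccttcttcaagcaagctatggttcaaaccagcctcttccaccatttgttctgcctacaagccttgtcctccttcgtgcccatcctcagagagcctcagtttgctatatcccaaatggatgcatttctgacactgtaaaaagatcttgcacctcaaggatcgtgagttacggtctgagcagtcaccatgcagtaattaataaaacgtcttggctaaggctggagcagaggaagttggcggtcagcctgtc
Ptgs2: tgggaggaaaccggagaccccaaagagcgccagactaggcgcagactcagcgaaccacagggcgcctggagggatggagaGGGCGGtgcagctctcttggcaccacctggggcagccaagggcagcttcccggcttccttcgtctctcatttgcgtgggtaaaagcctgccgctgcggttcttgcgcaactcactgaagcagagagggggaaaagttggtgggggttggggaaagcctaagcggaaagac

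The E receptor windows differed in composition. G and C made up 38% of the bases before Ptger2, 62% before Ptger3 and 66.8% before Ptger4, against a median of 52.4% over 32851 mouse windows of the same length. The Ptger3 window held 21 CG pairs and the Ptger4 window held 19, whereas the Ptger2 window held 3 and the median over all windows was 6. GC boxes occurred 3 times before Ptger3 and 4 times before Ptger4, where the first 2 share 1 base, and 32.7% of all windows hold at least 1. A CCAAT stood 156 to 160 bases before the start of Ptger2 and 71 to 75 bases before that of Ptger4, a motif that 33.8% of all windows hold.

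Of the cyclooxygenase windows, that of Ptgs2 was 61.6% G and C with 13 CG pairs and held 1 GC box, 165 to 170 bases before the start. That of Ptgs1 was 48% G and C with 5 CG pairs and held none of the 5 motifs. None of the 5 windows held the TATA box, the E-box or the cAMP response element core, which occur in 12.4%, 6.02% and 17.8% of all windows. For Ptgs2 the RefSeq start lies 69 bases before the row of the files, and those 69 bases were not searched.

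Fold changes below are log2 values from edgeR on the deposited counts, each with its SE and a p-value adjusted over all genes tested. They are relative to TMM scaling, which corrects for genes that take up a large share of a library. The mean TMM factor was 1.21 for iWAT adipocytes, 1.27 for eWAT adipocytes and 0.658 for BAT, so a fold change against BAT is lower for the white depots than the ratio of the printed RPKM values. Without TMM the median over all genes would move from 0.01 to 0.87 in iWAT adipocytes over BAT, with 13701 genes called in favour of iWAT adipocytes and 3054 in favour of BAT, and from -0.02 to 0.89 in eWAT adipocytes over BAT, with 12962 and 4066.

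A mean of at least 1 RPKM was reached by 7 of the 10 genes in iWAT adipocytes, by 8 in eWAT adipocytes and by 4 in BAT. The plot of RPKM by sample shows each gene on its own axis.

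**Figure D1:**
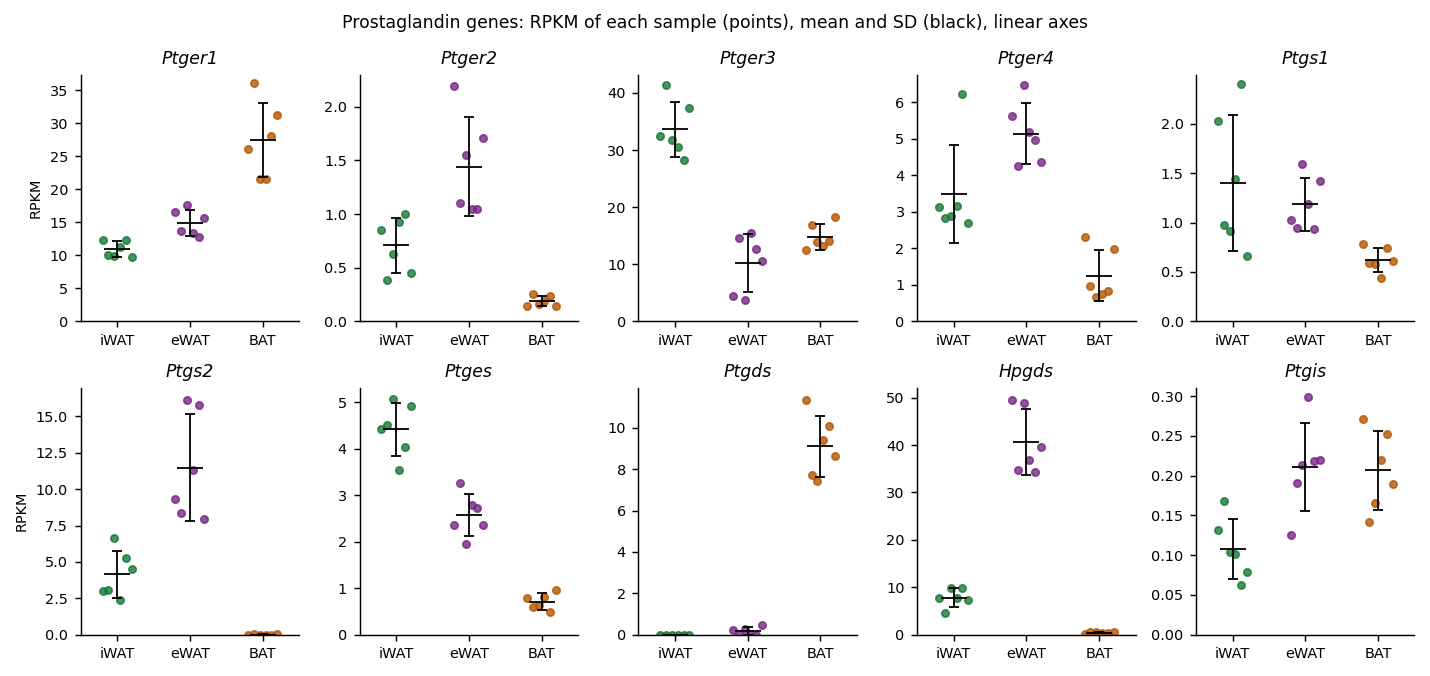
RPKM (vertical axis, linear, a separate range for each gene) of the 10 genes in the 6 iWAT adipocyte, 6 eWAT adipocyte and 6 BAT samples. Each point is a sample and the black bar is the mean with its SD. Ptger3 and Ptges were highest in iWAT adipocytes (means of 33.6 and 4.42 RPKM), Ptgs2 and Hpgds in eWAT adipocytes (11.5 and 40.6 RPKM), and Ptgds in BAT (9.10 RPKM).

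Between iWAT and eWAT adipocytes, the 2 genes higher in iWAT adipocytes were Ptger3 and Ptges, and the 6 higher in eWAT adipocytes were Ptger1, Ptger2, Ptger4, Ptgs2, Hpgds and Ptgis. These 8 were among 9 tested, because Ptgds had too few reads. Among all 19623 genes tested 68.6% passed the same threshold (adjusted p of 0.05), 34.1% higher in iWAT adipocytes and 34.5% higher in eWAT adipocytes, so calls on these genes were common in general. A change of at least 2-fold was called for 4 of the 9 genes and for 24.9% of all genes, and the RPKM values of the 2 groups did not overlap for 6 of the 9 and for 44% of all genes. The median log2 fold change of the 9 was -0.56, against 0.00 over all genes. With eWAT samples 1 and 3 left out, 7 of the 9 were called, 2 and 5 in the 2 directions, beside 60.2% of all genes.

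Between iWAT adipocytes and BAT, 9 of the 10 genes were called. Ptger2, Ptger3, Ptger4, Ptgs2, Ptges and Hpgds were the 6 higher in iWAT adipocytes, and Ptger1, Ptgds and Ptgis the 3 higher in BAT. Over all 19745 genes 75.3% were called, 38.1% higher in iWAT adipocytes and 37.2% higher in BAT. At least 2-fold changes were called for 7 of the 10 and for 37.3% of all genes. In RPKM, without TMM scaling, groups did not overlap for 8 of the 10 and for 65.3% of all genes. The median log2 fold change was 0.72 for the 10 genes and 0.01 over all genes. Without TMM scaling all 10 were called, 7 and 3 in the 2 directions, beside 84.9% of all genes.

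Between eWAT adipocytes and BAT, 9 of 10 were called as well, 5 higher in eWAT adipocytes (Ptger2, Ptger4, Ptgs2, Ptges and Hpgds) and 4 higher in BAT (Ptger1, Ptger3, Ptgds and Ptgis). Over all 20076 genes 82.5% were called, 41.1% higher in eWAT adipocytes and 41.4% higher in BAT. At least 2-fold changes were called for 8 of the 10 and for 49% of all genes. In RPKM, without TMM scaling, groups did not overlap for 8 of the 10 and for 68.4% of all genes. The median log2 fold change was 0.80, against -0.02 over all genes. Without TMM scaling the split of the called genes was 6 and 2 in place of 5 and 4, because Ptger3 and Ptgis were then not called and Ptgs1 was, beside 84.8% of all genes. With eWAT samples 1 and 3 left out, 8 of the 10 were called, 5 and 3 in the 2 directions, beside 80.8% of all genes. The 3 comparisons share their samples in pairs, so their values are given side by side and their overlap is not a result.

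**Figure D2:**
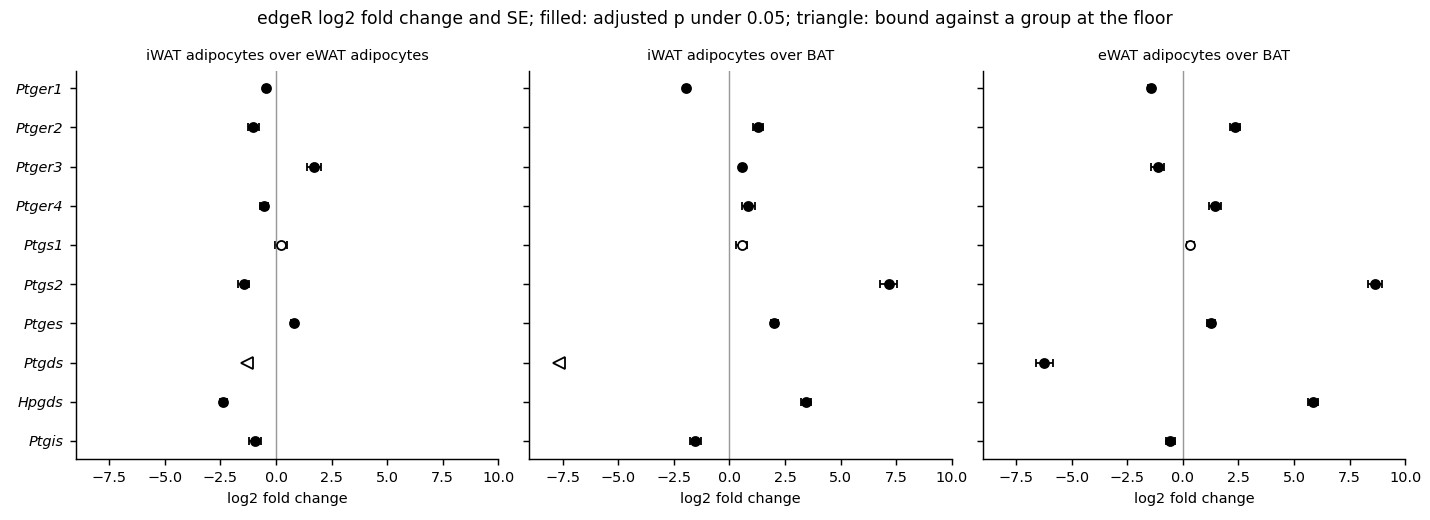
log2 fold change (horizontal axis) with its SE for each gene in the 3 comparisons, where values above 0 are higher in the first-named group. Filled points passed an adjusted p of 0.05, open points did not, and open triangles are bounds for Ptgds against iWAT adipocytes, where no read was counted. Ptgs2 in eWAT adipocytes over BAT lies furthest to the right (8.65). The points of Ptger3 and Ptgis in eWAT adipocytes over BAT (-1.13 and -0.57) are not called without TMM scaling, where that of Ptgis changes sign (0.34).

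Ptger3, which encodes the Gi-coupled EP3 receptor, was the E receptor with the highest level in iWAT adipocytes. Its row lies at chr3:157229856-157307722 on the plus strand of mm9 and matches the annotated gene base for base at its ends. The 6 iWAT adipocyte samples had 32.5, 41.3, 31.7, 30.5, 28.3 and 37.3 RPKM (samples 1, 2, 3, 4, 5 and 16). Those of eWAT adipocytes had 4.49, 14.5, 3.70, 15.4, 12.7 and 10.6 RPKM (the same numbers), and those of BAT had 12.4, 16.8, 13.97, 13.2, 14.1 and 18.2 RPKM (samples 1, 2, 5, 16, 17 and 18). In RPKM, every iWAT adipocyte sample was above every other sample, while the eWAT adipocyte and BAT values overlapped. On TMM-scaled RPKM, iWAT adipocytes (lowest 23.4) overlapped BAT (highest 24.6), and eWAT adipocytes (highest 13.8) lay below BAT (lowest 16.3).

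The log2 fold change of Ptger3 was 1.72 ± 0.32 in iWAT over eWAT adipocytes (adjusted p = 3.6e-04), 0.58 ± 0.12 in iWAT adipocytes over BAT (adjusted p = 4.3e-04) and -1.13 ± 0.29 in eWAT adipocytes over BAT (adjusted p = 0.0024). The last of these was not called without TMM scaling (-0.22, adjusted p = 0.47) or by limma on log2 RPKM (adjusted p of 0.061 and 0.058). The comparison of iWAT adipocytes with BAT missed the threshold when all 18 samples were fitted together (adjusted p = 0.057). With eWAT samples 1 and 3 left out, both comparisons of eWAT adipocytes kept their sign, at 1.33 in iWAT over eWAT adipocytes and -0.73 in eWAT adipocytes over BAT, both still called.

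Within eWAT adipocytes Ptger3 varied with the adipocyte markers. The adipocyte marker sums of eWAT samples 1, 2, 3, 4, 5 and 16 were 760, 1954, 557, 1890, 1777 and 1413 RPKM, so the pair with the least Ptger3, samples 1 and 3, also had the least adipocyte marker RNA. In iWAT adipocytes the lowest Ptger3 value, 28.3 RPKM in sample 5, likewise came with the lowest adipocyte sum, 2868 RPKM, and the highest, 41.3 RPKM in sample 2, with the highest, 4255 RPKM. In BAT, Ptger3 lay at 12.4 to 18.2 RPKM at adipocyte sums of 784 to 996. The part of adipocyte content in the Ptger3 differences was not tested. Over the 18 samples, with group means subtracted, the genes whose levels followed Ptger3 most closely among 14157 symbols included Ntrk2 (r = 0.973) and Pcx (r = 0.971).

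Ptger4 and Ptger2, which encode the Gs-coupled EP4 and EP2 receptors, were ordered the other way between the white depots. Ptger4 (chr15:5156661-5194187, minus strand) had 3.14, 2.84, 2.90, 3.15, 6.21 and 2.71 RPKM in iWAT adipocytes, 5.62, 4.24, 6.46, 5.19, 4.96 and 4.35 RPKM in eWAT adipocytes and 2.30, 0.971, 0.665, 0.761, 0.840 and 1.99 RPKM in BAT. In RPKM, sample 5 of iWAT adipocytes lay within the eWAT range and the other 5 below it, and every BAT sample was below every white sample. On TMM-scaled RPKM, BAT (highest 3.02) overlapped iWAT adipocytes (lowest 2.46) and stayed below eWAT adipocytes (lowest 3.75). Ptger4 had a log2 fold change of -0.56 ± 0.18 in iWAT over eWAT adipocytes (adjusted p = 0.014), 0.86 ± 0.29 in iWAT adipocytes over BAT (adjusted p = 0.014) and 1.45 ± 0.26 in eWAT adipocytes over BAT (adjusted p = 1.1e-04). The first of these was not called with all 18 samples in one fit (adjusted p = 0.057) or with eWAT samples 1 and 3 left out (-0.44, adjusted p = 0.069). Samples 1 and 3, with the highest macrophage sums, had the most Ptger4 among eWAT adipocytes, and the part of macrophages was not tested. The row overlaps that of Ttc33 on the other strand, and the strand used in counting is not given in the sources used here.

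Ptger2 (chr14:45607786-45623495, plus strand) was low throughout. It had 0.852, 0.382, 0.630, 0.926, 1.004 and 0.456 RPKM in iWAT adipocytes and 2.20, 1.10, 1.55, 1.05, 1.05 and 1.71 RPKM in eWAT adipocytes. In BAT it ranged from 0.144 to 0.260 RPKM, on 21 to 53 reads per sample. None of the 3 groups overlapped another. Ptger2 had a log2 fold change of -1.03 ± 0.25 in iWAT over eWAT adipocytes (adjusted p = 0.0023), 1.28 ± 0.24 in iWAT adipocytes over BAT (adjusted p = 1.4e-04) and 2.34 ± 0.23 in eWAT adipocytes over BAT (adjusted p = 1.2e-07). Genes closest to it in pattern were AK133504 (r = 0.894), Stx2 (r = 0.890) and Efr3b (r = 0.880), and for Ptger4 they were 2310014H01Rik (r = 0.920), Litaf (r = 0.918) and Tra2b (r = 0.909), over the same 18 samples.

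Ptger1 counts cannot be assigned to the receptor with certainty. The symbol has 2 rows that overlap on opposite strands, and the strand used in counting is not known here. The row used lies at chr8:86190539-86196652 on the plus strand. The row had 9.70 to 12.3 RPKM for iWAT adipocytes, 12.8 to 17.6 RPKM for eWAT adipocytes and 21.6 to 36.0 RPKM for BAT, without overlap. The log2 fold change was -0.45 ± 0.08 in iWAT over eWAT adipocytes (adjusted p = 3.8e-04), and -1.93 ± 0.10 and -1.46 ± 0.11 in the 2 comparisons with BAT.

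Shares within a sample do not depend on the scaling between samples. Among Ptger2, Ptger3 and Ptger4, Ptger3 made up 88.7% ± 4.72 of the summed RPKM for iWAT adipocytes, 57.3% ± 18.4 for eWAT adipocytes and 91.2% ± 4.06 for BAT (mean ± SD, n = 6). The eWAT share ran from 31.6% to 73.1%, below the lowest iWAT share of 79.7% and the lowest BAT share of 83.6%. With the uncertain Ptger1 row counted as a receptor, the shares were 68.8%, 31.4% and 34.1%. Ptger4 made up 9.41% ± 4.09, 33.1% ± 13.8 and 7.67% ± 4.25 of the 3 receptors, and Ptger2 made up 1.93% ± 0.818, 9.56% ± 5.23 and 1.18% ± 0.318. The eWAT shares rest on samples 1 and 3, where Ptger3 made up 36.5% and 31.6%. With them left out (n = 4), Ptger3 made up 68.9% ± 4.16 (63.6% to 73.1%), Ptger4 24.5% ± 2.39 and Ptger2 6.56% ± 2.48 in eWAT adipocytes, and Ptger3 40.1% ± 5.16 with the Ptger1 row counted.

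**Figure D3:**
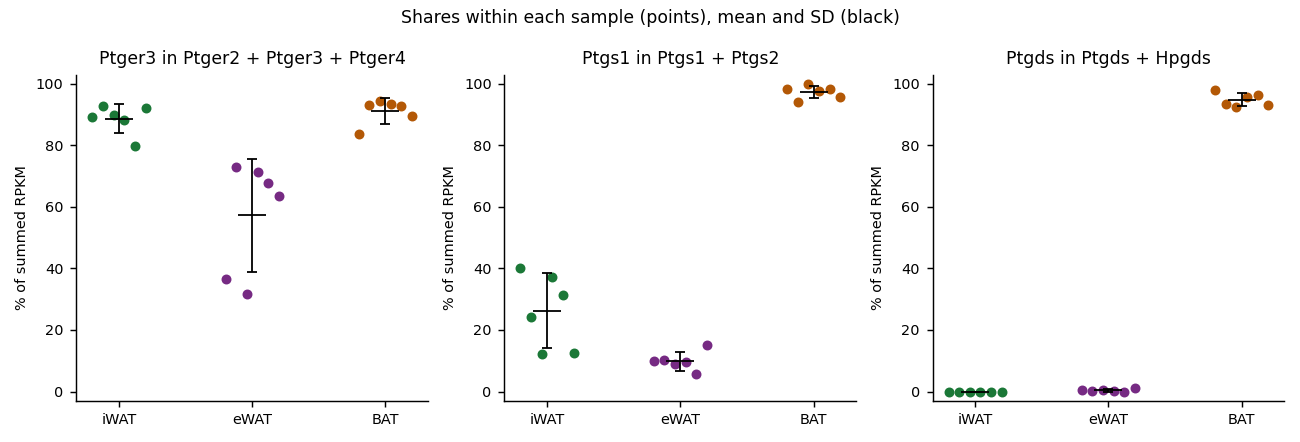
Share (vertical axis, % of summed RPKM) of Ptger3 among Ptger2, Ptger3 and Ptger4, of Ptgs1 among Ptgs1 and Ptgs2, and of Ptgds among Ptgds and Hpgds in each of the 18 samples, with the mean and SD in black. Ptger3 had the lower shares in eWAT adipocytes (31.6% to 73.1%), Ptgs1 held at least 94.2% in BAT, and Ptgds held at least 92.5% in BAT and at most 1.22% in the white depots.

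Ptgs2, the inducible cyclooxygenase (chr1:151947230-151955147, plus strand), was almost without reads in BAT. In iWAT adipocytes it had 2.996, 3.04, 6.63, 2.42, 5.28 and 4.54 RPKM, and in eWAT adipocytes 9.36, 8.36, 16.1, 11.3, 15.7 and 7.92 RPKM. The 6 BAT samples had 2, 6, 0, 1, 2 and 4 reads, 15 in all, which came to at most 0.0365 RPKM. No groups overlapped. Ptgs2 had a log2 fold change of -1.46 ± 0.26 in iWAT over eWAT adipocytes (adjusted p = 2.7e-04), 7.16 ± 0.39 in iWAT adipocytes over BAT (adjusted p = 1.8e-10) and 8.65 ± 0.33 in eWAT adipocytes over BAT (adjusted p = 3.2e-12), the last 2 being 143-fold and 400-fold.

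A list of 10 immediate early genes, which are known to be induced within minutes by many stimuli, was looked at beside Ptgs2 and was added after the values were seen. Their summed RPKM was 2528 ± 523 for iWAT adipocytes, 2099 ± 268 for eWAT adipocytes and 94.2 ± 46.9 for BAT, and all 10 had a mean of at least 1 RPKM in the white depots. Fos, a transcription factor of this class, had 383 to 611 RPKM for iWAT adipocytes, 245 to 354 RPKM for eWAT adipocytes and 0.660 to 4.03 RPKM for BAT. The mean sum was thus higher in iWAT than in eWAT adipocytes, with overlap, where that of Ptgs2 was lower. Macrophage markers had the group order of Ptgs2, with means of 3140 RPKM in eWAT adipocytes, 662 in iWAT adipocytes and 40.7 in BAT, and iWAT samples 3 and 5 were highest for both. In eWAT adipocytes samples 3 and 5 had the most Ptgs2 (16.1 and 15.7 RPKM), where samples 1 and 3 had the most macrophage marker RNA. The part of macrophages in the Ptgs2 differences was not tested. The part of cell preparation in the Ptgs2 difference cannot be told apart from that of tissue. The genes closest to Ptgs2 in pattern with group means subtracted were Zfp703 (r = 0.882), Tnfaip3 (r = 0.846), which encodes an inhibitor of NF-kB signalling, and Il10 (r = 0.844), the gene of the cytokine interleukin 10.

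Ptgs1, the constitutive cyclooxygenase (chr2:36085946-36107792, plus strand), passed the threshold in none of the 3 comparisons. It had 2.02, 0.978, 0.912, 1.44, 2.40 and 0.659 RPKM in iWAT adipocytes, 1.03, 0.948, 1.59, 1.19, 0.935 and 1.42 RPKM in eWAT adipocytes, and 0.778, 0.592, 0.578, 0.437, 0.739 and 0.610 RPKM in BAT. Ptgs1 had a log2 fold change of 0.24 ± 0.27 in iWAT over eWAT adipocytes (95% interval of -0.29 to 0.76, adjusted p = 0.45), 0.54 ± 0.25 in iWAT adipocytes over BAT (0.05 to 1.04, adjusted p = 0.060) and 0.34 ± 0.15 in eWAT adipocytes over BAT (0.04 to 0.64, adjusted p = 0.0501). The comparisons with BAT sat at the threshold: DESeq2 called both (adjusted p of 0.045 and 0.039), and so did edgeR without TMM scaling (1.41 and 1.24) and limma. In edgeR, leaving out iWAT adipocyte sample 2, 3 or 16 brought the first under the threshold, and leaving out eWAT adipocyte sample 1, 2 or 5 or BAT sample 1 brought the second under it.

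Ptgs1 made up 26.3% ± 12.1 of the summed RPKM of the 2 cyclooxygenases for iWAT adipocytes, 9.89% ± 3.08 for eWAT adipocytes and 97.3% ± 2.07 for BAT. The BAT shares (94.2% to 100%) did not overlap the others, while the iWAT shares (12.1% to 40.3%) overlapped the eWAT shares (5.60% to 15.2%). The genes closest to Ptgs1 in pattern were LOC100504127 (r = 0.971), Tspan13 (r = 0.961) and Rgs12 (r = 0.960). In iWAT adipocytes the 5 endothelial markers summed to 240.6, 137, 121, 180.1, 283 and 100.1 RPKM (samples 1, 2, 3, 4, 5 and 16), which is the order of the Ptgs1 values. Their group means were 177 ± 71.9, 51.1 ± 15.7 and 85.7 ± 12.7 RPKM in the same order of groups as above. In eWAT adipocytes the endothelial sum was highest in sample 4 (73.1 RPKM) and Ptgs1 in sample 3 (1.59 RPKM). In BAT the sum was highest in sample 18 (101 RPKM) and Ptgs1 in sample 1 (0.778 RPKM). Sums of fibroblast or progenitor markers and of B cell markers had nearly the iWAT order of Ptgs1. Only samples 2 and 3 changed places. The part of these cell types in the Ptgs1 values was not tested.

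Ptges, the microsomal prostaglandin E synthase that works with Ptgs2 (chr2:30744991-30785383, minus strand), followed the order iWAT, eWAT, BAT. It had 4.43, 4.51, 5.08, 3.54, 4.03 and 4.92 RPKM in iWAT adipocytes, 2.36, 3.27, 1.94, 2.78, 2.72 and 2.35 RPKM in eWAT adipocytes, and 0.488 to 0.962 RPKM in BAT, without overlap. Ptges had a log2 fold change of 0.79 ± 0.13 in iWAT over eWAT adipocytes (adjusted p = 1.3e-04), 2.02 ± 0.17 in iWAT adipocytes over BAT (adjusted p = 2.6e-08) and 1.26 ± 0.18 in eWAT adipocytes over BAT (adjusted p = 9.2e-06). Ptgs2 and Ptges, which act in sequence, thus had opposite orders between the white depots. The adipocyte marker sums had the same order of group means (3680, 1392 and 903 RPKM, without TMM scaling). Between eWAT adipocytes and BAT, however, Plin1 (means of 116 and 196 RPKM) and Lipe (70.0 and 169 RPKM) went the other way. The rest of the list had the order of the sums. Within eWAT adipocytes samples 2, 4 and 5 were highest and sample 3 lowest for both Ptges and the adipocyte sum. The other groups differed. In iWAT adipocytes the sum was highest in sample 2 and lowest in sample 5, but Ptges was highest in sample 3 and lowest in sample 4. In BAT, sample 17 had the highest sum (996 RPKM) and the lowest Ptges (0.488 RPKM). The part of adipocyte content in the Ptges differences was not tested. The genes closest to Ptges in pattern were LOC100048884 (r = 0.821), the fatty acid desaturase family gene Fads3 (r = 0.810) and the collagen gene Col5a3 (r = 0.808).

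The 2 prostaglandin D synthases were found in different groups. Hpgds, the haematopoietic form, was used on a single-exon row (chr6:65066823-65070122) that is written on the plus strand and lies over the 3′ end of the annotated minus-strand gene. This row had 7.68, 4.59, 9.89, 7.73, 9.80 and 7.32 RPKM in iWAT adipocytes, 49.6, 34.7, 48.8, 36.9, 34.2 and 39.6 RPKM in eWAT adipocytes and 0.239 to 0.649 RPKM in BAT. The row with the 6 exons of the gene (chr6:65067287-65094902, minus strand) had 2.84 to 5.99, 20.5 to 29.3 and 0.241 to 0.6253 RPKM, so both rows put the groups in the same order, without overlap. The log2 fold change of the row used was -2.37 ± 0.16 in iWAT over eWAT adipocytes (adjusted p = 2.2e-07), 3.45 ± 0.22 in iWAT adipocytes over BAT (adjusted p = 1.4e-09) and 5.85 ± 0.21 in eWAT adipocytes over BAT (adjusted p = 1.6e-12).

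Hpgds moved with macrophage genes in the white depots. The 6 macrophage markers had sums of 560, 453, 894, 682, 787 and 597 RPKM in iWAT adipocytes and of 4103, 2737, 4043, 2559, 2594 and 2803 RPKM in eWAT adipocytes, and samples 1 and 3 of eWAT adipocytes were highest for both the markers and Hpgds. In iWAT adipocytes sample 2 was lowest and samples 3 and 5 highest for both. In BAT, where the sums were 25.1 to 50.1 RPKM, Hpgds was below 1 RPKM in every sample. There the orders differed, with the lowest sum in sample 16 and the lowest Hpgds (0.239 RPKM) in sample 1. Mast cells are another known place of Hpgds, and their 6 markers summed to 2.84 ± 1.33, 2.83 ± 1.74 and 3.04 ± 1.005 RPKM in the 3 groups. The iWAT and BAT sums were mostly Kit (means of 1.66, 0.470 and 1.56 RPKM), while the mast cell protease Tpsb2 had means of 0.194, 0.643 and 0.353 RPKM. Within eWAT adipocytes the mast cell sums were 3.84, 1.40, 5.197, 3.86, 0.634 and 2.01 RPKM, lowest in samples 5 and 2, which also had the least Hpgds. Genes closest to it in pattern were Ddx31 (r = 0.913), Gpnmb (r = 0.904), a glycoprotein of lipid-laden macrophages, and Clec12a (r = 0.896), a myeloid lectin. The part of macrophages and of mast cells in the Hpgds differences was not tested.

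Ptgds, the lipocalin-type D synthase (chr2:25322229-25325566, minus strand), had nearly all of its reads in BAT. In BAT it had 11.4, 7.74, 7.45, 9.39, 10.1 and 8.63 RPKM on 300 to 618 reads. No read was counted in any of the 6 iWAT adipocyte samples, which allows up to 3 reads or 0.0666 RPKM per sample, so BAT was at least 204-fold higher on TMM-scaled RPKM. In eWAT adipocytes the reads numbered 14, 3, 13, 1, 0 and 27, or 0.206, 0.0537, 0.265, 0.0229, 0 and 0.488 RPKM. The log2 fold change in eWAT adipocytes over BAT was -6.24 ± 0.39 (adjusted p = 8.4e-10), and the mean of eWAT adipocytes was at least 2.49-fold above the floor of iWAT adipocytes. That bound rests on sample 16, which held 27 of the 58 reads: without it the bound was 1.57-fold, and 3 of the 6 eWAT samples lay under the iWAT floor. Floors and such bounds cover counting error only.

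The few Ptgds reads in eWAT adipocytes came with genes of the epididymis, the duct that this fat pad borders and a known site of Ptgds. The 5 epididymal markers summed to 5.43, 1.75, 7.90, 0.337, 0.167 and 15.3 RPKM in eWAT adipocyte samples 1, 2, 3, 4, 5 and 16, which is the order of the Ptgds values. They were at most 0.00845 RPKM in iWAT adipocytes and 0 in BAT. Gpx5, an epididymal glutathione peroxidase, was the gene closest to Ptgds in pattern (r = 0.926 with group means subtracted), with 414, 1, 698, 0, 0 and 702 reads in the same samples, ahead of Edv (r = 0.775) and Leng8 (r = 0.770). The r with Gpx5 rests on the eWAT adipocyte samples alone, because Ptgds had no read in iWAT adipocytes and Gpx5 had none in BAT. Without subtracting group means it was -0.09 over the 18 samples. Whether the Ptgds reads came from epididymal tissue was not tested. Of 5 mesothelial markers, Msln, Upk3b, Upk1b and Wt1 had at most 1 read in any BAT sample. The remaining marker, Lrrn4, was highest in BAT, with a mean of 8.30 RPKM against 2.31 in iWAT adipocytes and 1.99 in eWAT adipocytes. Schwann cell markers summed to 59.0 RPKM in BAT, 9.09 in iWAT adipocytes, where Ptgds had no read, and 0.629 in eWAT adipocytes. Within BAT, samples 1 and 17 were highest and sample 5 lowest for both that sum and Ptgds, while the other samples differed in order. Brown adipocyte and skeletal muscle sums were also highest in BAT. The part of these cell types in the BAT Ptgds level was not tested.

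Ptgds made up 94.8% ± 2.19 of the summed RPKM of both D synthases in BAT (92.5% to 97.9%), at most 1.22% in eWAT adipocytes and 0% in iWAT adipocytes. With the minus-strand row of Hpgds the BAT share was 95.1% ± 2.19.

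**Figure D4:**
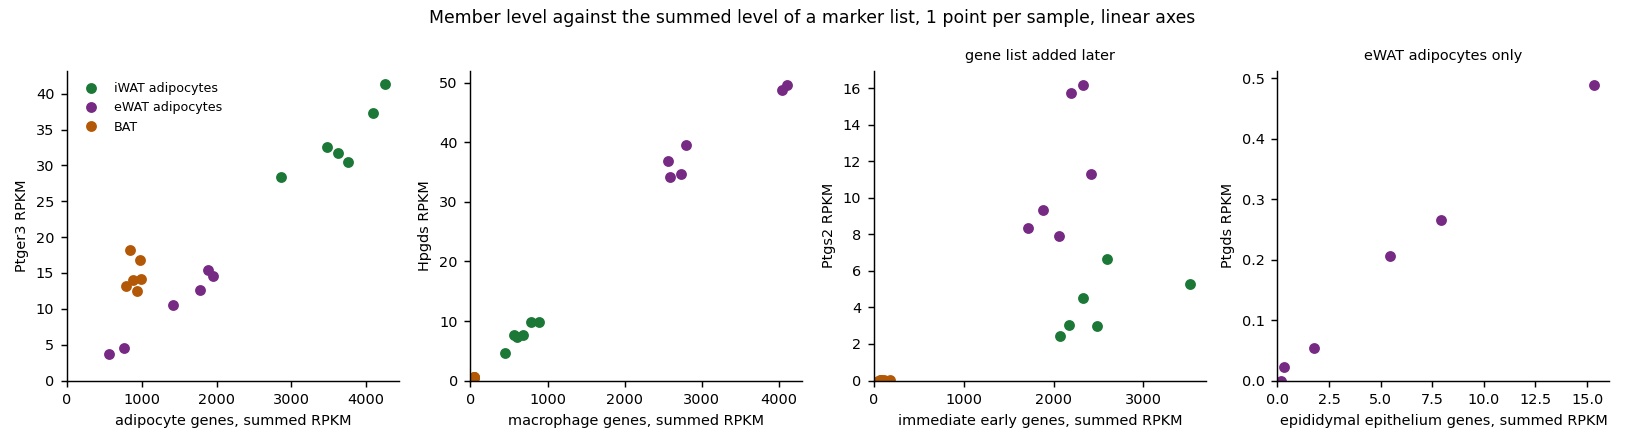
RPKM of a gene (vertical axis) against the summed RPKM of a marker list (horizontal axis), linear axes, 1 point per sample: Ptger3 against 6 adipocyte genes, Hpgds against 6 macrophage genes, Ptgs2 against 10 immediate early genes (a list added after the values were seen), and Ptgds against 5 epididymal genes in the 6 eWAT adipocyte samples alone. The eWAT adipocyte samples with 557 and 760 RPKM of adipocyte genes have the lowest Ptger3 (3.70 and 4.49 RPKM), and the Ptgds values rise in the order of the epididymal sums, up to 0.488 RPKM at 15.3 RPKM.

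Ptgis, the prostacyclin synthase (chr2:167017305-167066104, minus strand), was near the limit of detection everywhere. It had 0.0620 to 0.169 RPKM in iWAT adipocytes on 13 to 32 reads, 0.126 to 0.299 RPKM in eWAT adipocytes on 36 to 55 reads and 0.142 to 0.271 RPKM in BAT on 28 to 62 reads, and each pair of groups overlapped. Ptgis had a log2 fold change of -0.95 ± 0.25 in iWAT over eWAT adipocytes (adjusted p = 0.0046), -1.54 ± 0.25 in iWAT adipocytes over BAT (adjusted p = 3.7e-05) and -0.57 ± 0.21 in eWAT adipocytes over BAT (adjusted p = 0.023). The last was 0.34 without TMM scaling and near 0 on log2 RPKM, it was not called with eWAT samples 1 and 3 left out (adjusted p = 0.097), and it was lost without eWAT adipocyte sample 1 (adjusted p = 0.053) or without BAT sample 1 (adjusted p = 0.057). The row shares bases with 1110018N20Rik on the other strand.

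The white depots were sequenced over 2 lanes that both held iWAT and eWAT adipocytes. The 8 genes called between them had the same direction of means within lane 1 (8 of 8) and within lane 2 (8 of 8), which is a description, since they were called on these same samples. With lane as a covariate 8 of the 9 were called, beside 66.3% of all genes. BAT was sequenced on 2 further lanes, so lane and tissue cannot be told apart there.

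A list of 22 other genes of prostanoid release, synthesis, breakdown, transport and reception was examined beside the 10. Between iWAT and eWAT adipocytes 20 of the 21 that could be tested were called, 11 higher in iWAT and 9 higher in eWAT adipocytes. In iWAT adipocytes over BAT 17 of 21 were called, 11 and 6 in the 2 directions (16 and 3 of 19 without TMM scaling), and in eWAT adipocytes over BAT 18 of 20, 12 and 6 (15 and 2 of 17 without it). These shares stand beside 68.6%, 75.3% and 82.5% of all genes. The median log2 fold changes of the list were 0.35, 0.48 and 0.79.

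**Figure D5:**
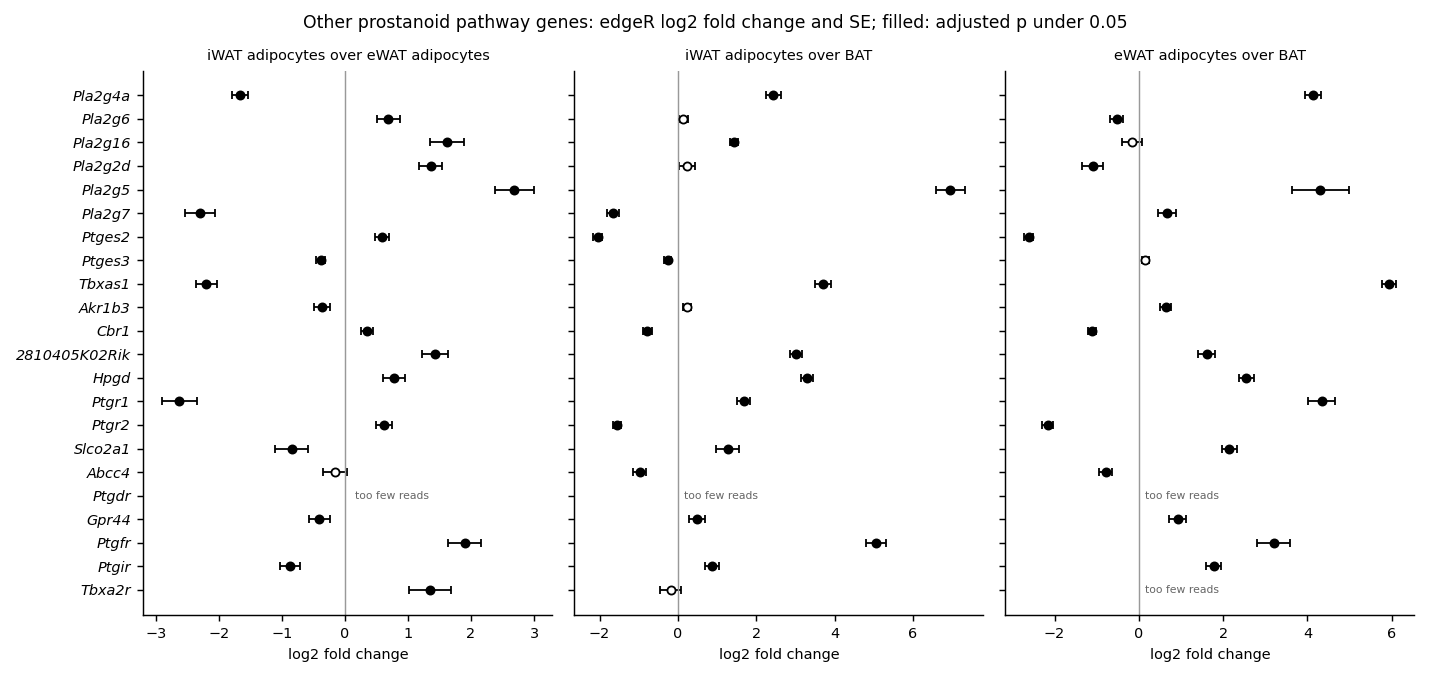
log2 fold change (horizontal axis, a separate range for each comparison) with its SE of 22 other prostanoid pathway genes, filled where the adjusted p was under 0.05. Values above 0 are higher in the first-named group. Pla2g5 has the largest value in iWAT adipocytes over BAT (6.95) and Tbxas1 in eWAT adipocytes over BAT (5.93). Ptges3 and Cbr1 in iWAT adipocytes over BAT (-0.26 and -0.78) change sign without TMM scaling (0.60 and 0.072).

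Of the 6 phospholipases, 4 were higher in iWAT and 2 in eWAT adipocytes. Pla2g16, the main phospholipase of white adipocytes, was the most abundant with 80.5 ± 9.80 RPKM for iWAT adipocytes, 26.3 ± 10.9 for eWAT adipocytes and 19.6 ± 2.05 for BAT. Its log2 fold change was 1.62 ± 0.27 in iWAT over eWAT adipocytes (adjusted p = 1.6e-04) and 1.44 ± 0.11 in iWAT adipocytes over BAT (adjusted p = 6.1e-09). Pla2g5, a secreted phospholipase, had 2.22 ± 0.334 RPKM for iWAT adipocytes, 0.351 ± 0.189 for eWAT adipocytes and 0.00930 ± 0.0152 for BAT, with log2 fold changes of 2.69 ± 0.31 and 6.95 ± 0.37 for iWAT over eWAT adipocytes and over BAT. Pla2g7, a lipoprotein-associated phospholipase that macrophages secrete, went the other way with 10.4 ± 2.34, 51.4 ± 20.2 and 21.4 ± 3.09 RPKM and a log2 fold change of -2.30 ± 0.24 in iWAT over eWAT adipocytes (adjusted p = 3.3e-06).

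Of the 6 other synthases, 3 were higher in iWAT and 3 in eWAT adipocytes. Tbxas1, the thromboxane synthase, had the pattern of Hpgds: 2.28 ± 0.628 RPKM for iWAT adipocytes, 10.5 ± 1.77 for eWAT adipocytes and 0.114 ± 0.0262 for BAT, with a log2 fold change of 5.93 ± 0.16 in eWAT adipocytes over BAT (adjusted p = 1.5e-13). 2810405K02Rik (Fam213b), a prostamide and prostaglandin F synthase, had the order of Ptges: 48.4 ± 6.33, 18.1 ± 5.84 and 3.94 ± 0.916 RPKM, all 3 comparisons being called. Ptges3, a widely expressed co-chaperone that is also counted as a cytosolic E synthase, differed little, with 33.3 ± 2.68, 43.8 ± 3.19 and 26.2 ± 3.39 RPKM and a log2 fold change of -0.39 ± 0.06 in iWAT over eWAT adipocytes (adjusted p = 1.5e-04). Cbr1, a carbonyl reductase that acts on prostaglandin E2, had 20.4 ± 2.25, 16.1 ± 1.53 and 23.1 ± 3.11 RPKM.

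Breakdown genes and other receptors also differed. Hpgd, the dehydrogenase that inactivates prostaglandin E2, had 27.3 ± 4.51 RPKM for iWAT adipocytes, 16.04 ± 4.12 for eWAT adipocytes and 1.83 ± 0.434 for BAT, with log2 fold changes of 3.30 ± 0.15 (adjusted p = 2.8e-11) and 2.55 ± 0.18 (adjusted p = 3.3e-09) for the white depots over BAT. Ptgr1, a reductase further down the same route, was highest in eWAT adipocytes with 17.2 ± 7.04 RPKM against 2.75 ± 0.443 in iWAT adipocytes and 0.559 ± 0.175 in BAT, a log2 fold change of -2.63 ± 0.27 in iWAT over eWAT adipocytes (adjusted p = 3.4e-06) and 4.33 ± 0.32 in eWAT adipocytes over BAT (adjusted p = 4.8e-09). Ptgfr, the prostaglandin F receptor, had 1.80 ± 0.315, 0.490 ± 0.242 and 0.0340 ± 0.0214 RPKM, with a log2 fold change of 5.06 ± 0.25 in iWAT adipocytes over BAT (adjusted p = 6.5e-11). Of the 5 prostanoid receptors outside the E class, those with a mean of at least 1 RPKM numbered 2 in iWAT adipocytes, but 1 in eWAT adipocytes and 0 in BAT.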

How the data were processed

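The 18 samples were taken by their labels as 6 iWAT adipocyte, 6 eWAT adipocyte and 6 BAT samples on HFD. RC samples were not analysed here. Libraries were prepared with NEBNext Ultra reagents and the authors mapped them to mm9. The submitters' processing notes list cutadapt 1.16 and HISAT2 2.1.0, and the counting program and strand setting are not given in the sources used here. The deposited files hold, per row, a whole-number read count and its RPKM, both computed by the authors.

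Every file has 53445 rows, and 1220 symbols have several. Each pair of groups was compared on its 12 samples with edgeR 4.0.16 in R 4.3.3 (TMM, glmQLFit and glmQLFTest, two-sided), keeping genes whose counts averaged 10 or more. P-values were adjusted by Benjamini-Hochberg over all genes tested, with a threshold of 0.05. The SE is the absolute log2 fold change over the root of F. The floor of a library was 3 reads. The step was tested on simulated data. Alternatives used limma 3.58.1 (log2(RPKM + 0.1) and log2(RPKM + 1)), DESeq2 1.42.0, other filters and scalings, and left-out samples. Python 3.11.15, numpy 2.4.6, pandas 2.3.3 and matplotlib 3.10.9 served the rest.

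All genes of the 10 were named. Of the 22 other pathway genes, the 6 with the highest mean RPKM and, in each comparison, the 2 with the largest called change were named. Genes closest in pattern are the 3 with the highest Pearson r of log2(RPKM + 0.1) after group means were subtracted, among symbols with a mean of at least 1 RPKM, given without a test for members with at least 1 RPKM in a group, and some of them are not reported here. The 10 genes and all lists were chosen with earlier results of these data known. The immediate early list, the second rows of Ptger1 and Hpgds and the leaving out of eWAT samples 1 and 3 or of each eWAT sample for the Ptgds bound were added after values were seen. Promoter windows come from RefSeq (GRCm38.p6), and each of the 8 windows matched NCBIM37 (mm9) once.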

Additional observations from a re-analysis of the deposited data

Results flagged for a closer look

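Ptger4 in iWAT adipocyte sample 5 was 6.208 RPKM on 1246 reads, while the other 5 samples of the group lay between 2.706 and 3.149 RPKM. The gap to the next sample was 0.8735 of the whole range of the group, above the 95% critical value of Dixon's test for a group of this size. Of 29 gene and group combinations tested, 1 was singled out in this way, and chance singles out about 1 in 20, or 1.45 of 29. The same sample had the most Ptgs1 of its group (2.40 RPKM) and the highest immediate early sum (3522 RPKM), and the lowest Ptger3 (28.3 RPKM). Their part in the Ptger4 value was not tested.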

How the results depend on the processing

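Under the rule that a call also needs a 2-fold change, the members called between iWAT and eWAT adipocytes numbered 4, the other pathway genes 10 and all genes 4892, and all genes called numbered 7363 in iWAT adipocytes over BAT and 9830 in eWAT adipocytes over BAT. With a cutoff of 0.1 RPKM in place of 1, 9 members counted as expressed in BAT. Leaving out each sample in turn gave 8 to 8, 9 to 10 and 9 to 10 members called in the 3 comparisons, 18 to 20, 16 to 18 and 18 to 19 other pathway genes, and 12667 to 13563, 14434 to 14833 and 16270 to 16552 of all genes. Among the genes named, without TMM the log2 fold change became 0.60 for Ptges3 and 0.072 for Cbr1 in iWAT adipocytes over BAT, and 0.34 for Ptgis and 0.74 for Pla2g16 in eWAT adipocytes over BAT. With limma at pseudocounts of 0.1 and 1 it became 0.35 and 0.34 for Ptges3, 0.018 and 0.0052 for Ptgis, and 0.30 and 0.29 for Pla2g16. Pla2g16 in eWAT adipocytes over BAT, not called at -0.16, was 0.19 with eWAT samples 1 and 3 left out. The cause was not tested beyond the scaling itself.

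The labels do not say whether same-numbered samples of 2 groups came from the same mouse. Between iWAT and eWAT adipocytes, the deviations of same-numbered samples correlated with a mean r of -0.0024 (6 pairs, -0.2998 to 0.5231). The mean r was -0.0191 between iWAT adipocytes and BAT (4 pairs) and -0.0144 between eWAT adipocytes and BAT (4 pairs). So few pairs, with a wide spread between the white depots, cannot decide whether mice were shared. With the number as a replicate block, 8, 9 and 9 members, 19, 15 and 17 other pathway genes, and 12836, 12555 and 15149 of all genes were called. Depth limits Ptgds in the white depots, Ptgs2 in BAT and Ptgis in each group, where reads were few.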
